A study of Mus musculus with 8 samples.

Results

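Gene start regions without a CpG island are accessible regions that lie within 1000 bp of an annotated gene start and in which no peak carries a CpG island in the deposited peak table. To find them, the peaks of all 8 ATAC-seq libraries were merged where they overlapped by at least 1 bp, and a region was kept when every peak in it had an island count of 0 and any peak lay within the limit. This gave 4881 of the 87144 merged regions, or 5.60%. They are called non-island start regions here, and the 11706 regions at gene starts with an island, called island start regions, serve as the comparison.

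The libraries came from testes of mice with a PIWIL2-eGFP transgene, which marks germ cells, and only eGFP-positive cells were sorted. All mice, the 0 h group included, were fed WIN 18,446, an inhibitor of retinoic acid (RA) synthesis, for 7 days from 2 days postpartum, so no group represents an untreated testis. The 0 h mice were collected after this treatment without RA, and the other mice were injected with RA at 9 days postpartum and collected 18, 48 or 120 h later. The study assigns these timepoints to undifferentiated type A, A1/A2, A3 and B spermatogonia. Each timepoint has 2 libraries, each from the pooled testes of 1 mouse. The labels derive the strain from C57BL/6 x 129s4/SvJae, whereas the methods name C57BL/6 x SJL.

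Many vertebrate promoters lie in CpG islands, which are stretches rich in unmethylated CpG dinucleotides, and these are often open in most cell types. Promoters with few CpGs are more often tied to tissue-restricted genes, and in germ cells several of them lose DNA methylation before the gene is used. ATAC-seq inserts sequencing adapters into open chromatin with a transposase, so the number of tags piled up at a site is read as accessibility. RA starts the change from undifferentiated to differentiating spermatogonia, and its best known target in these cells is Stra8.

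To show what a start region without an island looks like, stretches of 150 bases are given for 8 of them on the strand of the named gene, 5′ to 3′, with each CpG in capitals (GRCm38, RefSeq sequence). Stretches were placed outside annotated exons as close to the summit as possible. Hmgb1 (chr5:149053058-149053207, minus strand) had the highest signal in its lowest library among regions at genes without a Gm or Rik name. Asz1 (chr6:18109062-18109211, minus strand) is a germ cell gene of the piRNA pathway. Among genes named by the rule given below, Spef2 (chr15:9748869-9749018, minus strand) and Rsl1 (chr13:67173032-67173181, plus strand) had the largest falls at 18 and 120 h. Slc39a11 (chr11:113565318-113565467, minus strand) and Ctcfl (chr2:173119526-173119675, minus strand) had the largest rises. Mir22hg (chr11:75460582-75460731, plus strand) and Cd68 (chr11:69666310-69666459, minus strand) had peaks in both 0 h libraries and in no later library.
Hmgb1: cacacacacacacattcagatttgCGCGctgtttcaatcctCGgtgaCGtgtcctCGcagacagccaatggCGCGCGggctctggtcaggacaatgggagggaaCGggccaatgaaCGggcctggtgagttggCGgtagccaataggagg
Asz1: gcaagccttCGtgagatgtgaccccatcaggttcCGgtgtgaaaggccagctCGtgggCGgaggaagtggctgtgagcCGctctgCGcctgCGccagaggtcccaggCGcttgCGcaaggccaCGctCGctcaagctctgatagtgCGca
Spef2: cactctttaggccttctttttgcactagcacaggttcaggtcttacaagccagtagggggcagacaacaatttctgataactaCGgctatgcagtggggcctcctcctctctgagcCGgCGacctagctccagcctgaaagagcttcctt
Rsl1: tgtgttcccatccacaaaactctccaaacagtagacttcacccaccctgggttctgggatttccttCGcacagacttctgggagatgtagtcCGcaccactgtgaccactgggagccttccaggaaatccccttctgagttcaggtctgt
Slc39a11: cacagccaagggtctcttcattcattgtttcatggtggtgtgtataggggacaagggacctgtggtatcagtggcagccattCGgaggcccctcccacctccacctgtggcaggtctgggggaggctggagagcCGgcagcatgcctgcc
Ctcfl: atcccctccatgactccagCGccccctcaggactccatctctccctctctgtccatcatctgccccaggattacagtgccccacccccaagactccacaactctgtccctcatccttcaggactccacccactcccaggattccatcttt
Mir22hg: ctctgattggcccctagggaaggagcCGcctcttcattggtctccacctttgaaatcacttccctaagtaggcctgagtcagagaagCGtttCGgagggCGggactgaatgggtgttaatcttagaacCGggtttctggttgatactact
Cd68: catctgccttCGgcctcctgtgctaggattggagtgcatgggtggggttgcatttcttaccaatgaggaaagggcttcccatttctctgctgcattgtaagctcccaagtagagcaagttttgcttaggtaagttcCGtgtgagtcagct

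The stretches at Hmgb1 and Asz1 hold 11 and 12 CpGs, although no island is annotated there. Mir22hg holds 5, Spef2 holds 3, Rsl1, Slc39a11 and Cd68 hold 2 each, and Ctcfl holds 1. The motif CCAAT is found in the stretches of Hmgb1, Mir22hg and Cd68. Non-island start regions thus run from CpG-rich to nearly CpG-free sequence.

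Over the 500 bp around the summit, non-island start regions had a median GC content of 54.0%, 15 CpGs and a ratio of observed to expected CpGs of 0.42. Island start regions had 64.4%, 40 CpGs and 0.80. Regions away from gene starts without an island had 48.4%, 7 CpGs and 0.26, so the non-island start regions lay between both groups. Of the 4881 regions, 662 (13.6%) reached a GC content of 50% and a CpG ratio of 0.6 in this window, against 87.7% of the island start regions. The source of the island annotation is not given in the sources used here. Median width was 491 bp for non-island and 902 bp for island start regions. The nearest genes numbered 4395, and 214 regions (4.38%) had at least 2 genes within the limit, against 13.2% of the island start regions. Lengthening the limit changes the membership gradually, since 281 members lay over 900 and up to 1000 bp from a start and 281 further regions without an island lay up to 1100 bp away. Of those just inside, 54.8% were counted at 0 h and 6.76% at all timepoints, and of those just outside 54.8% and 8.19%.

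More non-island start regions had a peak in each 0 h library, from the undifferentiated cells, than in any library after RA. At 0 h, 4124 and 4160 of them had a peak in the replicate libraries. Afterwards they numbered 1729 and 2185 (18 h), 1646 and 2178 (48 h), and 2268 and 1517 (120 h). The mean was 4142 ± 25.5 (SD, n = 2) at 0 h and 1920.5 ± 326 (SD, n = 6) in the later libraries, a ratio of 2.16, and the groups did not overlap. A two-sided exact permutation test of 2 against 6 libraries gave p = 0.071, the smallest value this design allows. The regions were drawn from the peaks of these same libraries, and each 0 h library held more peaks than any later one. This test is therefore not independent of the selection. The libraries held 69089 and 72215 peaks of all kinds at 0 h and 24643 to 39551 later, after the authors had reduced each to the same number of tags. The non-island start regions made up 5.99% ± 0.247 (SD, n = 2) of all peaks at 0 h and 6.35% ± 0.274 (SD, n = 6) later (exact permutation p = 0.214). The fall in their number was thus part of a fall in peaks of all kinds. With equally many peaks per library, the highest ones, the mean difference of 2221.5 regions between 0 h and later shrank to 131.5.

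**Figure D1:**
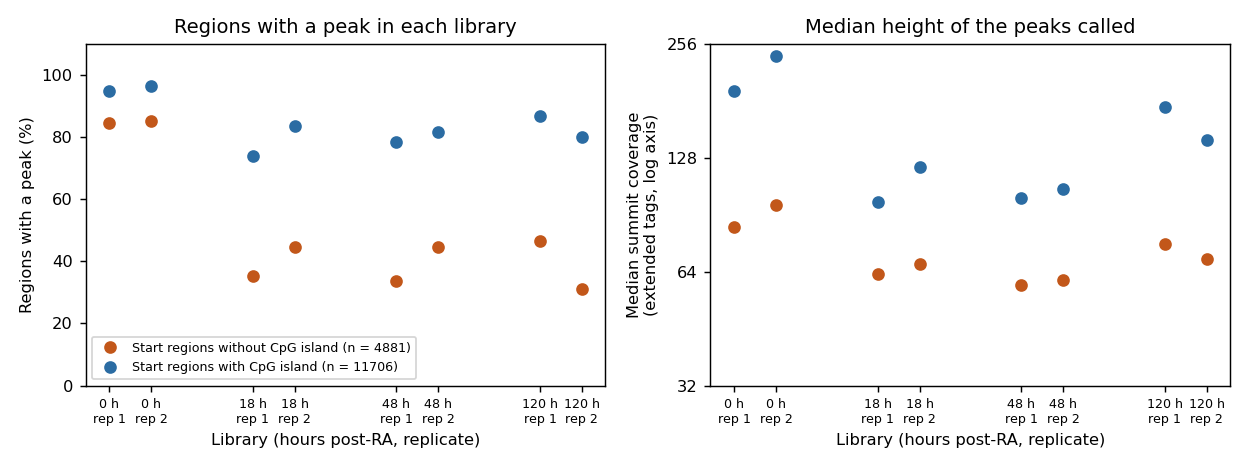
Share of start regions with a peak (left, %) and median summit coverage of those peaks (right, extended tags, log axis) in each of the 8 libraries, for start regions without and with a CpG island. Each point is 1 library. The non-island points drop from about 85% at 0 h to between 31.1% and 46.5% later, while the island points stay between 74.1% and 96.5%, and the non-island medians are lower in every library.

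Compared with island start regions, the non-island regions kept fewer peaks after RA. At 0 h, 84.5% and 85.2% of the non-island and 94.8% and 96.5% of the island start regions had a peak. Later, 31.1% to 46.5% of the non-island and 74.1% to 86.9% of the island start regions did. The difference between both kinds was −10.8 ± 0.620 percentage points (SD, n = 2) at 0 h and −41.4 ± 4.46 percentage points (SD, n = 6) later (exact permutation p = 0.071, the smallest possible). Non-island regions accordingly made up 27.1% and 26.9% of all start regions with a peak at 0 h and 13.9% to 18.5% later. Both kinds were drawn from the peaks of these same libraries, so the shares and their test are not independent of the selection. Of the non-island start regions, 941 were counted at 0 h alone and had no peak in any later library.

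A region was counted as accessible at a timepoint when both libraries had a peak there. By this measure 3741 non-island start regions were counted at 1 timepoint or more. Of these, 1757 (47.0%) were counted at 0 h alone and 1017 (27.2%) at all 4 timepoints. Among 10994 island start regions these shares were reversed in order, with 11.8% at 0 h alone and 72.3% at all timepoints. Of the 1757 regions, 941 had no peak in any later library, and the others had a peak in 1 library of some later timepoint. Regions counted at 120 h alone were few, at 61, and those at 18 h or 48 h alone numbered 8 and 7. The regions counted at 0 h alone were low at 0 h, with median summit values of 61 and 67 tags, while those counted throughout had medians of 224 and 271. The lowest summit values called were 24 or 25 tags in each library, but peaks were called by a p-value, so a region without a peak has an unknown height and was not shown to be closed. A lower signal can also come from fewer open cells or from less accessibility per cell, and these cannot be told apart in bulk libraries. The share of tags that fell inside peaks was not measured here. A difference in it between libraries cannot be told apart from the timepoint either.

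Markers of other testis cells had fewer start peaks after 0 h, and the part of such cells in these results was not tested. Start regions of all kinds had fewer peaks as well. Of all non-island start regions, 84.5% and 85.2% had a peak at 0 h and 31.1% to 46.5% later. Of all island start regions, 94.8% and 96.5% did at 0 h and 74.1% to 86.9% later. Of 45 genes of spermatogonia, 38 and 40 had a start peak at 0 h and 29 to 35 later, and of 23 genes of the piRNA pathway 23 and 23 did at 0 h and 20 to 22 later. The germ cell genes Ddx4, Dazl and Piwil2 had one in all 8 libraries, and so had the Sertoli marker Wt1. Of 20 Sertoli cell markers, 13 and 12 had a start peak at 0 h and 5 to 8 later. Sox9 among them had one in every 0, 48 and 120 h library and in no 18 h library. Of 11 Leydig cell markers, 3 and 3 did at 0 h and 0 to 2 later, and the defining genes Cyp11a1, Cyp17a1, Hsd3b1, Star and Insl3 had none in any library. Peritubular markers numbered 7 and 7 of 10 at 0 h and 3 to 5 later, with Acta2 marked in all 8 libraries and Myh11 in 7. Of 25 blood and endothelial markers, 6 and 5 had one at 0 h and 2 to 3 later, and Ptprc, Lyz2, C1qa, Pecam1 and Cdh5 had none in any library. Among the non-island start regions themselves, 8 belonged to Sertoli markers, of which 5 were counted at 0 h and 1 at each later timepoint. All 3 regions of Leydig markers and 3 of the 4 of blood and endothelial markers were counted at 0 h, and none of them later. The 6 regions of peritubular markers were all counted at 0 h, and 3, 2 and 3 of them at 18, 48 and 120 h. Over all non-island start regions counted at 0 h, 42.3% (18 h), 39.9% (48 h) and 36.9% (120 h) were counted again. Among 41 genes of haploid spermatids, a cell stage not present at these ages, 20 and 21 had a start peak at 0 h and 12 to 16 later.

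Peaks at non-island start regions were also lower than those at island start regions. Medians were lower still in regions without an island away from gene starts. These had 64 and 69 tags (0 h), 54 and 56 (18 h), 51 and 54 (48 h) and 64 and 54 (120 h). Island regions away from gene starts had 95 and 109, 66 and 74, 63 and 67, and 80 and 72 in the same order. The median summit value of non-island start regions was 84 and 96 tags (0 h), 63 and 67 (18 h), 59 and 61 (48 h) and 76 and 69 (120 h). On the log2 scale the median was lower than that of island start regions in 8 of 8 libraries, with a mean difference of −0.97 ± 0.24 (SD, n = 8) and a range of −1.31 to −0.64. The two-sided exact permutation test of paired values gave p = 0.0078, the smallest value that 8 libraries allow. A region was non-island only when none of its peaks carried an island, and both kinds were drawn from these same libraries. This test is therefore not independent of the selection. By timepoint the gap (± SD, n = 2) was −1.25 ± 0.083 (0 h), −0.75 ± 0.15 (18 h), −0.78 ± 0.025 (48 h) and −1.12 ± 0.10 (120 h). The gap at 0 h against that in the 6 later libraries gave an exact permutation p = 0.143, above the smallest possible value. Each median was taken over the regions called in that library, so the sets of regions differ between timepoints. These gaps and their test therefore cannot show how the same regions changed in height. A fixed set, of 1017 non-island and 7954 island start regions, is read below. Its gaps were −0.20 and −0.31 (0 h), −0.25 and −0.40 (18 h), −0.53 and −0.37 (48 h) and −0.79 and −0.96 (120 h).

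Because high peaks are more likely to be found again, the loss of peaks was read within classes of 0 h height. There were 3656 non-island and 10892 island start regions counted at 0 h. Of the non-island regions, 42.3% (18 h), 39.9% (48 h) and 36.9% (120 h) were counted again, and 27.8% at all 3 later timepoints. The island regions reached 78.0%, 80.6%, 83.5% and 73.0%. Using equally many peaks per library, the highest ones, the difference at 18 h was −14.9 percentage points in place of −35.8. Regions without an island away from gene starts reached 29.2% (18 h) and 19.7% (120 h), and 13.1% at all 3. When both kinds of start region were sorted together into 10 classes of 0 h height and the classes weighted equally, the difference shrank from −35.8 to −5.22 percentage points at 18 h, from −40.7 to −10.7 at 48 h and from −46.6 to −18.9 at 120 h. The difference left after matching was thus smallest at 18 h and largest at 120 h. Taken per later library, the height-matched difference was −10.3 ± 5.46 percentage points (SD, n = 6), from −19.4 to −4.30, below 0 in 6 of 6 libraries (two-sided exact permutation p = 0.03125, the smallest possible). These 6 values share the same 0 h libraries, whose heights also set the classes and the regions counted. Error in those heights can leave a difference after matching, so this test cannot separate the kind of region from height.

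**Figure D2:**
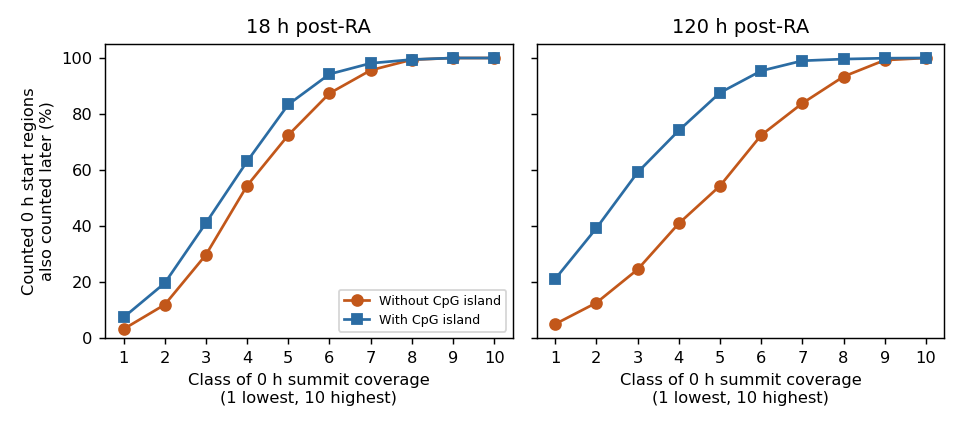
Percent of start regions counted at 0 h that were also counted at 18 h (left) and 120 h (right), by class of 0 h summit coverage, for regions without and with a CpG island. Points are shares of regions in a class. At 18 h the non-island curve lies below the island curve in classes 1 to 8, by at most 11.3 percentage points, and at 120 h the non-island curve lies below the island curve in classes 1 to 9, most in class 3 (24.5% against 59.2%), while both reach 100% in class 10.

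In the third class, with 0 h summit values of 84.8 to 110 tags, 29.8% of 497 non-island regions and 41.1% of 958 island regions were counted at 18 h. At 120 h the shares were 24.5% and 59.2%. In the fifth class, 141 to 182 tags, 72.5% and 83.4% were counted at 18 h, and 54.4% and 87.6% at 120 h. Above 385 tags nearly all regions of both kinds were counted at both timepoints. From 18 h to 120 h the share of non-island regions fell in classes 3 to 9, while that of island regions rose in classes 1 to 8.

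Among the non-island start regions, those with more CpGs and those closest to the gene start kept their peaks more often. Of the regions counted at 0 h, 30.1% of 302 with a CpG ratio under 0.2 were counted at 18 h, 30.5% of 1167 with 0.2 to 0.4, 45.6% of 1499 with 0.4 to 0.6 and 60.3% of 688 with 0.6 or more. At 120 h the shares were 24.8%, 21.0%, 40.1% and 62.2%. Their median 0 h heights were 82.6, 80.8, 102 and 154 tags. Within 5 classes of 0 h height, regions with a ratio of at least 0.4 exceeded the others by 4.86 and 5.23 percentage points in the 18 h libraries, 6.64 and 6.24 at 48 h, and 12.1 and 12.8 at 120 h. Without these classes the differences were 18.9 to 25.3 percentage points. Regions within 100 bp of a start were counted at 18 h in 53.9% of 1912 cases, those beyond this and up to 300 bp in 38.1% of 627 and those beyond 300 bp in 24.6% of 1117. Within the height classes, regions within 100 bp exceeded those farther away by 4.43 to 11.0 percentage points in the 6 later libraries. Upstream regions were counted at 18 h in 46.1% of cases and regions at or downstream of the start in 38.2%. Regions with an island region within 1000 bp, 794 in all, were counted at 0 h in 50.8% of cases and the other 4087 in 79.6%.

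**Figure D3:**
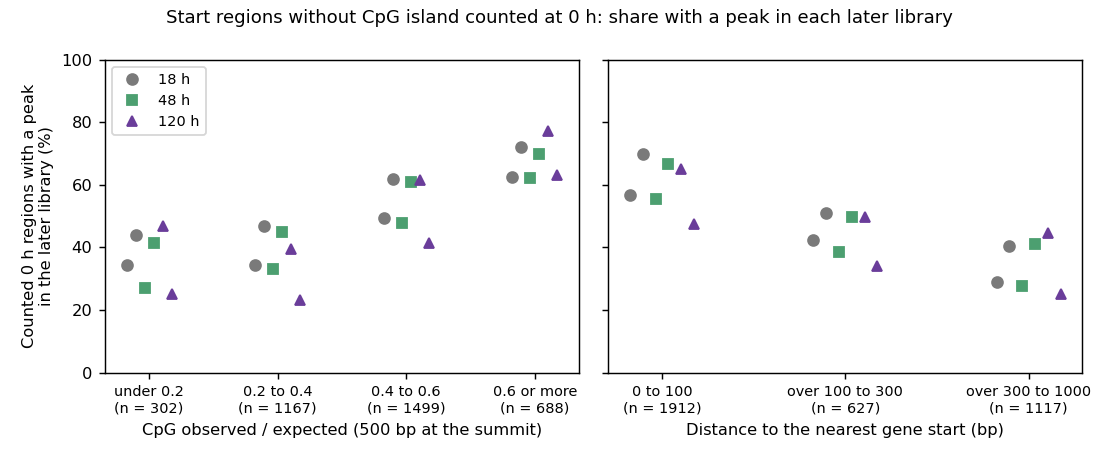
Percent of non-island start regions counted at 0 h that had a peak in each of the 6 later libraries, by the ratio of observed to expected CpGs (left) and by distance to the nearest gene start in bp (right). Each point is 1 library, and n is the number of regions in the class. Shares are lowest for ratios below 0.4 and highest for 0.6 or more, and they drop with distance from the start in every library.

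Short sequence motifs were counted on both strands in the 200 bases around the summit. CCAAT, the box bound by NF-Y, was found in 27.7% of the non-island start regions, 28.2% of the island start regions and 25.3% of all 87144 regions. It was found in 43.5% of the 1017 non-island regions with a peak in all 8 libraries and in 23.6% of the 1757 counted at 0 h alone. GGGCGG, a GC box bound by SP factors, was found in 26.9% of non-island, 61.1% of island and 19.3% of all regions, with 44.1% and 23.0% in the same 2 subsets. CCGGAAG, an ETS motif, reached 6.21%, 13.3% and 4.60%, and 11.8% and 4.61% in the subsets. TGANTCA, an AP-1 motif, was found in 4.86% of non-island, 1.87% of island and 5.46% of all regions, and TATAAA in 3.75%, 1.92% and 5.55%. The half-site AGGTCA repeated in the same direction with 5 bases between the copies, a form bound by RA receptors, had 0 exact matches in the 4881 regions and 12 among all regions. These are matches of letters, and binding was not measured.

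Heights could be compared over time in 15536 regions, those with a peak in all 8 libraries. Of these, 1017 are non-island start regions and 7954 island start regions. Regions that lost their peak are not in this set. Summit values of all tested regions fell from 0 h to 18 h, with a median log2 change of −1.23, and the median change from 0 h to 120 h was −0.75. Changes are therefore given relative to the median of each library, which was 224 and 270 tags (0 h), 91 and 116 (18 h), 86 and 102 (48 h) and 166 and 106 (120 h). They were tested with limma, with Benjamini-Hochberg adjustment over all 15536 regions at 0.05. Without this centring, 963 of the 1017 non-island start regions were lower and 0 higher at 18 h, beside 92.3% and 0.296% of all tested regions. From 0 h to 120 h, 640 were lower and 2 higher, beside 44.8% and 0.882%.

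At 18 h, few non-island start regions were called against the library median. In simulated data limma recovered 0.0% of regions changed by log2 0.5 and 33.0% of those changed by 1.0, so such changes can go uncalled. At an unadjusted p under 0.05, 85 were lower than at 0 h (8.36%) and 59 higher (5.80%), beside 4.99% and 8.30% of all tested regions. After adjustment 6 were lower and 6 higher, where 0.225% and 1.25% of all tested regions were lower and higher. The 12 calls became 2 and 3 without 18 h replicate 1 or 2, and 6 without any 1 of the 0 h or 48 h libraries. Their median log2 change was −0.04, beside 0.03 over all regions. Between 18 h and 48 h limma called 0 lower and 0 higher, as it did for all tested regions (0.0% in both directions, and 0.00644% lower without centring), and at an unadjusted p under 0.05 there were 43 lower (4.23%) and 17 higher (1.67%), beside 3.15% and 2.75% of all tested regions. From 48 h to 120 h, 152 were lower and 56 higher, beside 7.45% and 9.47% of all tested regions, but without 48 h replicate 2 none were called, and without 48 h replicate 1, 120 h replicate 2 or 120 h replicate 1 the numbers were 31, 18 and 126 in all. Without centring that split turned to 3 lower and 150 higher, beside 0.18% and 23.7%. From 0 h to 120 h, 287 were lower and 118 higher, which is 28.2% and 11.6% of the 1017, beside 15.8% and 23.0% of all tested regions. Of the island start regions, 5.88% were lower and 31.9% higher. The median log2 change was −0.19 in non-island start regions, 0.36 in island start regions and 0.14 in all tested regions, and without centring −1.08, −0.53 and −0.75. Without 120 h replicate 2 the calls numbered 229 in place of 405, and with quantile normalization 211 were lower and 45 higher. Under that normalization 10.2% of all tested regions were lower and 8.74% higher. In the 1349 non-island start regions with a peak in the 4 libraries compared, 226 were lower (16.8%) and 153 higher (11.3%). Of all 20285 regions tested in this way, 2014 (9.93%) were lower and 4052 (19.98%) higher. The median log2 changes of the 1349 and the 20285 regions were −0.021 and 0.21.

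**Figure D4:**
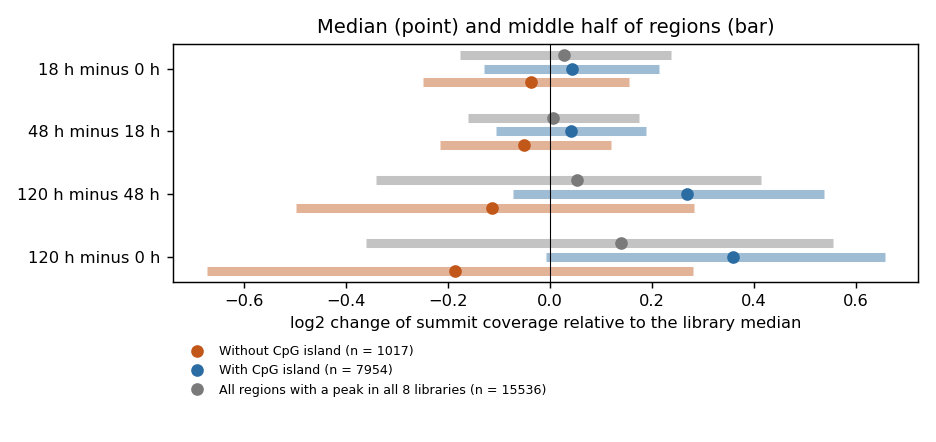
Median (points) and interquartile range (bars) of the log2 change of summit coverage relative to the library median in 4 comparisons, for the 1017 non-island start regions, the 7954 island start regions and all 15536 regions with a peak in all 8 libraries. Bars show the spread over regions, not an error. The groups sit close together at 18 and 48 h, and for 120 h minus 0 h the non-island median is −0.19 and the island median 0.36 (−1.08 and −0.53 without centring).

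The gap between both kinds can also be read within each library, where a single scaling factor per library plays no part. In these regions the median of the non-island minus that of the island start regions was −0.20 and −0.31 on the log2 scale (0 h), −0.25 and −0.40 (18 h), −0.53 and −0.37 (48 h) and −0.79 and −0.96 (120 h). Both 120 h libraries lay below all others. A difference between libraries in the spread of heights is not removed in this way. With quantile normalization the median changes from 0 h to 120 h were −0.22 in non-island and 0.14 in island start regions. From 48 h to 120 h they were −0.054 and 0.063. Counts by CpG content are given as a description. Of 41 tested non-island regions with a CpG ratio under 0.2, 11 were lower and 8 higher at 120 h than at 0 h, with a median log2 change of −0.25, beside 15.8% and 23.0% of all tested regions. Of 179 with a ratio of 0.2 to 0.4, 82 were lower and 15 higher, with a median of −0.57. Of 451 with 0.4 to 0.6, 146 were lower and 32 higher, with a median of −0.31. Of 346 with a ratio of at least 0.6, 48 were lower and 63 higher, with a median of 0.11. These counts and medians are relative to the library median, and they do not follow the order of the CpG ratio in its lowest class.

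Among the genes named by rule, Slc39a11, which encodes a zinc transporter, rose most against the library median at 18 h. Its region (chr11:113565184-113566015, 41 bp upstream of the start in the deposited table, which lies inside the RefSeq gene model, summit in an intron) had summit values of 212 and 234 tags (0 h), 298 and 343 (18 h), 355 and 353 (48 h) and 455 and 346 (120 h). All later libraries exceeded both 0 h libraries. The log2 change against the median was 1.78 ± 0.20 (SE) at 18 h (limma adjusted p = 0.000349) and 1.72 ± 0.20 at 120 h (adjusted p = 0.000125). Without centring both calls were lost, with 0.52 at 18 h (adjusted p = 0.166) and 0.83 at 120 h (adjusted p = 0.054).

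Stra8 encodes the RA-induced regulator of meiotic entry, which is also switched on as spermatogonia differentiate. Its region at chr6:34920631-34921059, with the summit in an untranslated exon, had 123 and 159 tags (0 h), 133 and 192 (18 h), 165 and 168 (48 h) and 202 and 182 (120 h). Tag values at 0 and 18 h overlap. Divided by the library median they were 0.549 and 0.589 (0 h), 1.46 and 1.66 (18 h), 1.92 and 1.65 (48 h) and 1.22 and 1.72 (120 h), with no overlap. The log2 change against the median was 1.45 ± 0.22 (SE) at 18 h (limma adjusted p = 0.00316) and 1.35 ± 0.22 at 120 h (adjusted p = 0.000897), and without centring it was 0.19 (adjusted p = 0.61) and 0.455 (adjusted p = 0.315). The Stra8 region thus rose relative to other regions, and a rise in tags did not pass the test. A second small region of Stra8, at −800 bp from the start, had a single peak of 65 tags, in 18 h replicate 2.

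The other rises at 18 h at genes named by the rule were at Pnck, a calmodulin-dependent kinase, Actl11, an actin-like gene, and Asmt, the last enzyme of melatonin synthesis, and the sixth was at a RIKEN gene. Their log2 changes against the median were 1.31, 1.16 and 1.10 (limma adjusted p = 0.046, 0.036 and 0.038), and without centring all 3 calls were lost, with Pnck at 0.053 (adjusted p = 0.889) and Actl11 and Asmt turned to −0.096 and −0.16. Pnck had 59 and 96 tags at 0 h and 67 and 91 at 18 h, Actl11 125 and 112 and then 119 and 103, and Asmt 167 and 232 and then 169 and 184, so the tag values of all 3 overlap between the timepoints. With quantile normalization Pnck (adjusted p = 0.162) and Actl11 (adjusted p = 0.068) lost their calls, as did Pnck with the mean signal of the peak (adjusted p = 0.075). Asmt lies in the pseudoautosomal region of the X chromosome, which the Y chromosome shares. The call of Pnck was lost without 0 h replicate 1 or either 18 h library, that of Actl11 without 0 h replicate 2, 18 h replicate 1 or either 48 h library, and that of Asmt without any 1 of the 0, 18 and 48 h libraries. The falls at 18 h included Spef2, a gene of the sperm flagellum. The Spef2 region (chr15:9748417-9749131, 26 bp upstream) had 170 and 240 tags (0 h), 40 and 42 (18 h), 39 and 48 (48 h) and 60 and 39 (120 h). All later values were far below both 0 h values, and the log2 change against the median was −1.04 ± 0.20 (SE) at 18 h (limma adjusted p = 0.019). Rab3c, Gria2 and Calb1, known for roles in neurons, and the tRNA-modifying enzyme Alkbh8 also fell, with changes of −1.04 to −0.91. Each of these 5 calls at 18 h was lost when either 18 h library was left out, that of Spef2 also without 0 h replicate 2, those of Rab3c, Gria2, Alkbh8 and Calb1 also without either 0 h library, and those of Gria2, Alkbh8 and Calb1 also without either 48 h library.

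The largest rise at 120 h among genes named by rule was at Ctcfl, the germ cell paralogue of the insulator protein CTCF. Its region (chr2:173118764-173120039, 27 bp upstream, summit in an intron) had 83 and 107 tags (0 h), 41 and 49 (18 h), 82 and 52 (48 h) and 213 and 256 (120 h). Both 120 h libraries were higher than all others, with a log2 change against the median of 2.20 ± 0.31 (SE, limma adjusted p = 0.000402). At 18 h Ctcfl did not pass the test (0.19 ± 0.31, limma adjusted p = 0.861). Mxra7, a gene linked to matrix remodelling, had 305 and 170 tags at 0 h and 589 and 297 at 120 h, with 75 to 117 between them, and a log2 change of 1.77 ± 0.31 (limma adjusted p = 0.0015). Ogt, the X-linked enzyme that adds O-GlcNAc to proteins, had 54 and 62 tags at 0 h and 90 and 80 at 120 h (1.44 ± 0.23, limma adjusted p = 0.000759). Nsf, an ATPase of vesicle fusion, had 126 and 196 at 0 h and 291 and 165 at 120 h (1.37 ± 0.23, limma adjusted p = 0.001). Raw values of Mxra7 and Nsf overlapped between these groups. Without centring Ctcfl (1.31, limma adjusted p = 0.0018) and Mxra7 (0.88, adjusted p = 0.042) kept their calls, while Ogt (0.55, adjusted p = 0.216) and Nsf (0.48, adjusted p = 0.288) lost theirs.

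The largest falls at 120 h among genes named by rule were at Rsl1, Zfp454, Zfp820, Efhc2 and LOC101056186. Rsl1, Zfp454 and Zfp820 encode zinc finger proteins, and Efhc2 is an EF-hand gene. The Rsl1 region (chr13:67172915-67173616, 2 bp from the start) had 295 and 302 tags (0 h), 57 and 96 (18 h), 67 and 107 (48 h) and 45 and 31 (120 h). Both 120 h libraries lay below all others, and the log2 change against the median was −2.11 ± 0.23 (SE, limma adjusted p = 6.1e-05). Zfp820 had 385 and 400 tags (0 h), 111 and 169 (18 h), 89 and 132 (48 h) and 92 and 46 (120 h) (−1.70 ± 0.22, limma adjusted p = 0.000216). Efhc2 fell from 230 and 328 tags to 51 and 36 (−1.79 ± 0.24, limma adjusted p = 0.000252), and Zfp454 from 230 and 284 to 52 and 31 (−1.78 ± 0.21, adjusted p = 0.00012).

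Genes whose symbol begins with Zfp encode zinc finger proteins, many of them repressors of transposons. They had 119 non-island start regions, beside 215 island start regions. Of these 119, 109 were counted at 0 h, at a median height of 170 tags, and 78.9% of those were counted at 18 h and 63.3% at 120 h. Over all non-island start regions counted at 0 h, the shares were 42.3% and 36.9%. In the class with 0 h summit values of 141 to 182 tags, they were 72.5% and 54.4%. Of the 119 Zfp regions, 59 had peaks in all 8 libraries. From 0 h to 120 h, 25 of the 59 fell against the library median and 3 rose, with a median log2 change of −0.50, beside 28.2% lower and 11.6% higher among all 1017 non-island start regions tested and 15.8% and 23.0% of all tested regions. Without centring 48 were lower and 0 higher, with a median of −1.39. In that setting 62.9% of the 1017 were lower and 0.197% higher, beside 44.8% and 0.882% of all tested regions. The 48 regions of olfactory receptor genes, which serve the sense of smell, were counted at 0 h in 25 cases at a median of 46.8 tags. Of these 25, 4 (16.0%) were counted at 18 h. In the lowest height class, up to 63.0 tags, 3.28% of the non-island start regions were. None of the 48 had a peak in all 8 libraries. Keratins and keratin-associated proteins had 23 regions, of which 11 were counted at 0 h and 1 of these at 18 h. The 73 regions of genes with a symbol beginning with Mir, host genes included, were counted at 0 h in 45 cases and again at 18 h in 14.

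**Figure D5:**
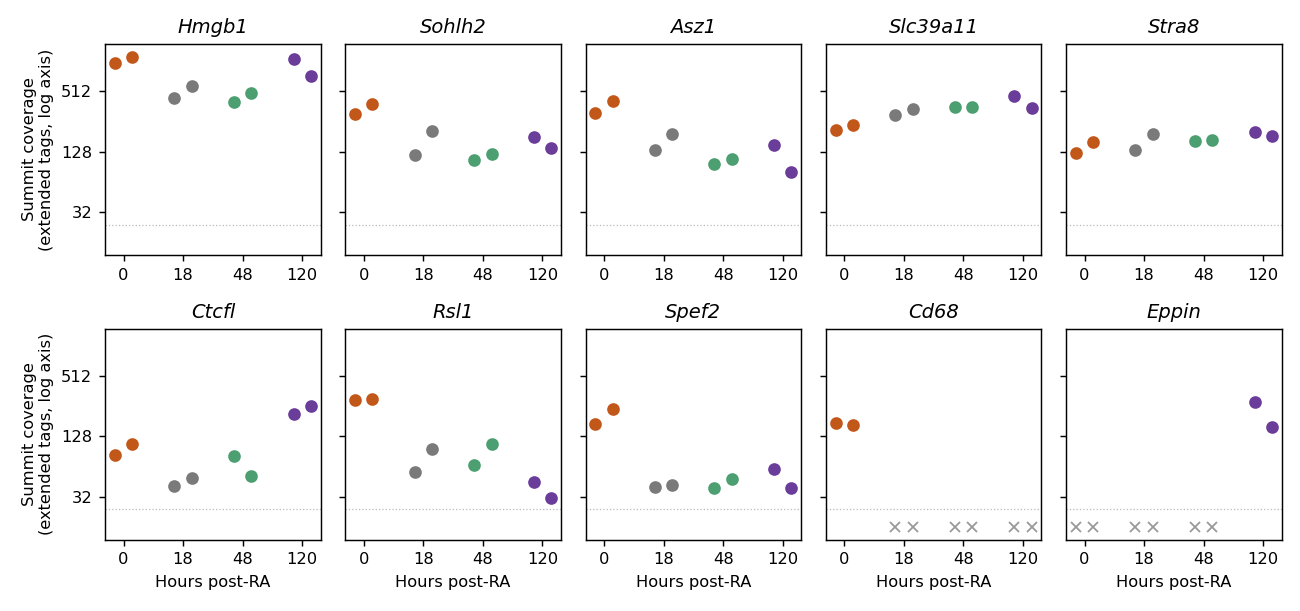
Summit coverage (extended tags, log axis) of 10 non-island start regions in each library by hours post-RA. Each point is 1 library, crosses mark libraries without a peak, whose height is unknown and not given by the place of the cross, and the dotted line is the lowest value called, 24. Stra8 and Slc39a11 stay level or rise in tags while Hmgb1, Sohlh2 and Asz1 drop at 18 h, Ctcfl is highest at 120 h, and Cd68 and Eppin have peaks at 0 h or at 120 h alone.

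At genes without a Gm or Rik name, the 5 regions with the highest value in their lowest library were those of Hmgb1, Tmem259, Reep6, Phf12 and Prcc. Hmgb1 encodes an abundant chromatin protein, and its region (chr5:149052721-149053563, CpG ratio 0.87) had 969 and 1112 tags (0 h), 435 and 570 (18 h), 395 and 486 (48 h) and 1068 and 723 (120 h). All 5 had high tag values at 0 and 120 h and lower values between them. Library medians over all tested regions also fell, from 224 and 270 tags (0 h) to 91 and 116 (18 h) and 86 and 102 (48 h). At 120 h they were 166 and 106. Against these medians limma called none of the 5 regions at 18 h, with log2 changes of −0.20 to 0.20 (adjusted p = 0.716 to 0.999). Their log2 changes at 120 h against the library median were 0.59 to 0.85, and without centring all 5 turned to between −0.30 and −0.036, where limma called none of them. With centring, all these calls but that of Tmem259 were lost without 120 h replicate 2, and also without 0 h replicate 1 (Hmgb1, Reep6, Prcc), 0 h replicate 2 (Hmgb1, Phf12, Prcc) or either 18 h library (Prcc). With quantile normalization all 5 lost their call, Tmem259 included (0.28, limma adjusted p = 0.29), and Hmgb1 was at 0.069 (adjusted p = 0.815).

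Of the regions with a peak in both 0 h libraries and in no later one, 717 were at a gene with a name other than a Gm or Rik symbol. The highest were those of Mir22hg (195 and 203 tags), the host gene of a microRNA, Gpr142 (174 and 177), a G protein-coupled receptor, Cd68 (172 and 166), a macrophage protein, H2-T10 (184 and 155), a histocompatibility gene, and Psmb10 (154 and 178), a subunit of the immunoproteasome. The cell type behind these peaks was not tested. The regions with a peak in both 120 h libraries alone numbered 27 by the same rule. Among the highest of them were those of Eppin, a protease inhibitor of the epididymis (279 and 160), Pttg1ip (165 and 135), Xpr1, a phosphate exporter (157 and 124), and Mus81, a nuclease that resolves recombination intermediates (149 and 121).

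Of 45 genes of spermatogonia, 12 had a non-island start region, 31 an island start region and 4 neither, so some had both kinds. The values below are those of the non-island start regions, which are a part of each gene. The 12 genes had 14 regions, of which 11 (0 h), 6 (18 h), 5 (48 h) and 6 (120 h) were counted. All 6 counted at 18 h were among the 11 counted at 0 h, beside 42.3% counted again over all non-island start regions. The region of Nanos3, an RNA-binding regulator of germ cell survival, had 191 and 107 tags at 0 h and no later peak. That of Pou5f1, a pluripotency factor, had 47 and 41 and no later peak. For the whole of Pou5f1 and of Lin28a, the paper reports accessible chromatin at every timepoint, with fewer peaks at Pou5f1 after RA. Utf1, a marker of undifferentiated spermatogonia, had 123 and 101 tags at 0 h and 1 later peak, of 73 tags at 120 h. Lin28a, which blocks let-7 processing, had 103 and 106 tags at its start at 0 h and 52 to 63 in 3 later libraries, and a region 683 bp upstream had 84 and 93 at 0 h and 65 and 49 at 120 h, with none between. Upp1, a uridine phosphorylase, had 101 and 100 tags at 0 h and 37 to 46 in 5 of the 6 later libraries, and Elavl2, an RNA-binding protein, had 64 and 89 and then 37 to 46 in 5 of 6. Dppa4 and Rhox10 each had a peak in 1 library, at 0 h. Sohlh1 and Sohlh2, transcription factors of differentiating spermatogonia, and Tex101, a germ cell surface protein, had peaks in all 8 libraries. Sohlh2 had 301 and 378 tags (0 h), 118 and 204 (18 h), 106 and 120 (48 h) and 177 and 138 (120 h). Against the library median none of the 3 passed the test at 120 h (limma adjusted p = 0.431 for Sohlh2 and 0.525 for both Sohlh1 and Tex101), and of the 4 tested regions of this list Stra8 was the one that rose and 0 fell.

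Genes of the piRNA pathway, which silences transposons in germ cells, had 7 non-island start regions among 23 genes, and the other 16 had an island. All 7 were counted at 0 h and 18 h and 6 at 48 h and 120 h. Asz1, a germ cell protein of the mitochondrial surface, had 307 and 410 tags (0 h), 133 and 192 (18 h), 97 and 108 (48 h) and 148 and 81 (120 h). At 120 h it was lower against the library median, with a log2 change of −0.81 ± 0.20 (SE, limma adjusted p = 0.0081). Gtsf1, a partner of PIWI proteins, was lower as well (−0.84 ± 0.22, adjusted p = 0.011), with 172 and 258 tags at 0 h and 92 and 44 at 120 h. Tdrd9, a helicase of the pathway, was higher (0.63 ± 0.22, adjusted p = 0.034), but −0.26 without centring. The calls of Asz1, Gtsf1 and Tdrd9 were lost without 120 h replicate 2, that of Gtsf1 also without 0 h replicate 2 and that of Tdrd9 without 0 h replicate 1. Piwil4, a nuclear PIWI protein, had 170 and 103 tags at 0 h, 33 and 54 at 18 h, none at 48 h and 36 in 1 library at 120 h. Gpat2, Tex19.1 and Tex19.2 did not pass the test. Tex19.1 and Tex19.2 are similar neighbouring genes whose reads can be hard to place, and Tex19.1 had the highest values of the list, at 413 and 614 tags at 0 h and 177 to 339 later.

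Of 40 meiotic genes, 5 had a non-island start region, 25 an island start region and 11 neither. Rec8, the meiotic cohesin, had 282 and 262 tags (0 h), 144 and 179 (18 h), 189 and 156 (48 h) and 255 and 244 (120 h). At 120 h Rec8 was higher against the library median (0.77 ± 0.25, limma adjusted p = 0.029) and M1ap, needed in male meiosis, likewise (0.67 ± 0.20, adjusted p = 0.021), and without centring they turned to −0.12 and −0.22. Both calls were lost without 120 h replicate 2, that of Rec8 also without 0 h replicate 2 and that of M1ap without 0 h replicate 1 or 120 h replicate 1. Hormad2, an axis protein, had 467 and 564 tags at 0 h and 161 to 251 later (−0.41, adjusted p = 0.12). Sycp3, of the synaptonemal complex, had 109 and 112 tags at 0 h in a region 957 bp inside the gene, and 1 later peak there. Of the 40 genes, 29 had a start peak of either kind in each 120 h library. Sycp3 was among them, through an island start region. Of 41 genes of haploid spermatids, 11 had 12 regions, of which 10 were counted at 0 h and 5, 3 and 3 at 18, 48 and 120 h. Ldhal6b and Tex33 were the called ones at 120 h, with log2 changes of −0.99 and −0.78 against the library median (limma adjusted p = 0.0038 and 0.018), and the call of Tex33 was lost without 0 h or 120 h replicate 2. Crisp2 had 64 and 75 tags and Spata16 43 and 81 at 0 h, both with no later peak.

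Genes of RA metabolism and response had 15 non-island start regions at 12 of 30 genes. An island start region was found at 18 and neither kind at 4, so some had both. The values below are those of the non-island start regions. Of the 15 regions, 9 (0 h), 4 (18 h), 3 (48 h) and 3 (120 h) were counted. Stra8 and Rec8 were the tested ones. The RA receptor gene Rarg had 84 and 46 tags at 0 h in a region 309 bp upstream and no later peak. Stra6, a receptor for retinol uptake, had 32 and 43 tags at 0 h, and Aldh1a1, which makes RA, had 47 and 57, both at starts inside the RefSeq gene model and with no later peak. Rdh11, a retinol dehydrogenase, had 104 and 118 tags at its start at 0 h and 45 to 79 in 5 of the 6 later libraries. Cyp26c1, an RA-degrading enzyme, had a single peak of 54 tags, at 18 h. Rxrg, an RXR receptor, had 66 and 130 tags at 0 h and 34 to 60 in 4 later libraries.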

How the data were processed

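ATAC-seq libraries were prepared from sorted eGFP-positive testis cells, 2 per timepoint. According to the methods and the labels, the authors aligned reads to mm10 with BWA 0.7.12, removed duplicate and mitochondrial reads, extended the tags, counted them in bins of 32 nt and reduced all libraries to the same number of tags. The submitters' processing notes also name MACS2 2.1.0, SAMtools 0.0.19, bcl2fastq 2.20 and bedtools 2.25.0. The authors called peaks in each library without a control. The deposited values used here are signal, the coverage of extended tags at the highest point of each peak (summit). The tag numbers of the libraries are listed in the study's supplement and were not used here. The source of the gene and CpG island annotation is not given in the sources used here, and distances to gene starts are those of the deposited table, whose starts can differ from the RefSeq gene models. A region without a peak has no value, so precision at low signal is limited by peak calling.

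Peaks were merged with an overlap of at least 1 bp, and the highest summit of a library in a region was its height. Heights were compared in regions with a peak in all 8 libraries, as log2 values centred on the library median, with limma 3.58.1 in R 4.3.3 over all 4 timepoints and Benjamini-Hochberg adjustment. Regions counted per library were compared with two-sided exact permutation tests. Python 3.11.15, numpy 2.4.6, pandas 2.3.3, scipy 1.17.1 and matplotlib 3.10.9 were used. Sequences and gene models came from GRCm38, the assembly called mm10, and sequences to be printed were placed outside exons. No exon-free stretch was found at Stra8. CpG ratios were computed over 500 bp and motifs over 200 bp.

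Named genes were those of fixed lists with a non-island start region, the 5 largest rises and 5 largest falls at 18 h and at 120 h among called regions whose groups did not overlap, the 5 highest with peaks at 0 h alone, at 120 h alone and in all 8 libraries, without Gm and Rik names. One region with peaks at 120 h alone is not reported here. Non-overlap was judged on heights centred on the library median. The regions and lists were chosen with earlier results of these data known. In simulated data for 18 h against 0 h with 15536 regions, of which 200 were changed, limma recovered 0.0% of regions changed by log2 0.5, 33.0% of those changed by 1.0 and 98.5% of those changed by 2.0. Replicates are separate mice, and their numbers were not used for pairing. Alternatives covered the distance limit, the island criterion, the peaks and values used, scaling, the replicate block and leaving out each library.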

Additional observations from a re-analysis of the deposited data

How the results depend on the processing

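Leaving out 1 library at a time, the difference in non-island start regions with a peak between 0 h and later was 2141 to 2291 (2221.5 with all libraries), and it was 131.5 with the same number of highest peaks per library. The height gap to island start regions was −1.02 to −0.93. The difference in the share counted at 18 h was −35.8 percentage points. It was −33.3 for a limit of 500 bp, −37.6 for 3000 bp, −33.1 with summits of at least 50, −14.9 with equal numbers of peaks and −5.22 within classes of 0 h height, and −39.0 to −31.2 with 1 library left out.

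The 12 calls at 18 h became 19 with the mean signal of the peak, 963 without centring, 945 without centring and with the replicate block, 6 with summits of at least 50, 23 for 3000 bp, 31 in regions with a peak in the 4 libraries compared, and 2 to 12 with 1 library left out. The median log2 change at 18 h was −0.037, and −0.054, −1.30, −1.30, −0.044, −0.020 and −0.0024 under these settings in the same order, −0.079 with quantile normalization, −0.046 for 500 bp and −0.057 to −0.035 with 1 library left out. The count of 0 between 18 h and 48 h stayed at 0 with any library left out. The 208 calls from 48 h to 120 h became 105 without centring and with the block, 10 with quantile normalization, 108 with summits of at least 50, and 0 to 219 with 1 library left out. The 405 calls from 0 h to 120 h became 642 without centring, 256 with quantile normalization, 258 with summits of at least 50 and 229 to 385 with 1 library left out. Their median of −0.19 became −1.08 without centring, with or without the block, −0.021 in regions with a peak in the 4 libraries compared (226 lower and 153 higher), and −0.21 to −0.14 with 1 library left out. The cause of these shifts was not tested beyond what each setting changes by construction.

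Without centring, with or without the block, named regions changed sign at 18 h for Actl11 (−0.096) and Asmt (−0.16), and at 120 h for Pnck (−0.0070), Asmt (−0.033), Hmgb1 (−0.24), Tmem259 (−0.036), Reep6 (−0.12), Phf12 (−0.20), Prcc (−0.30), Tdrd9 (−0.26), Rec8 (−0.12) and M1ap (−0.22). The replicate block alone gave 12, 0, 217 and 428 calls in the 4 comparisons and changed no call of 42 named results. Of these 42, 9 more lost their call without centring, 16 did with quantile normalization, 6 with the mean signal, 1 with the intensity trend and 2 in regions with a peak in the 4 libraries compared, and with summits of at least 50 there were 7 lost and 20 kept. Deviations of libraries with the same number had correlations of −0.22 to 0.25 between timepoints. With 2 libraries per timepoint, these values cannot settle whether the numbers mark a shared batch. Over all combinations of a named result and 1 library left out, the call was kept in 267 and lost in 69.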

Other observations

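The X chromosome held 280 non-island start regions, of which 222 were counted at 0 h. Of these 41.9% were counted at 18 h and 39.2% at 120 h, beside 42.2% and 36.7% of the 3428 autosomal regions counted at 0 h. Regions at lncRNA genes numbered 483, of which 369 were counted at 0 h and 35.2% of those at 18 h, while of 2966 regions at protein-coding genes counted at 0 h 44.8% were. Pseudogenes had 126 regions, and 16.5% of the 79 counted at 0 h were counted at 18 h. All 4 regions of defensin genes were counted at 0 h and none of them at 18 h or 120 h. Histone genes had 5 non-island and 37 island start regions, and Rhox homeobox genes, an X-linked cluster active in reproductive tissues, had 7, of which 4 were counted at 0 h and 0 of these at 18 h or 120 h. Over all non-island start regions counted at 0 h, 42.3% were counted at 18 h and 36.9% at 120 h. These shares are descriptions over regions and were not tested.

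Acta2, a smooth muscle actin of peritubular cells, was called higher at 120 h than at 0 h against the library median, by 1.10 ± 0.29 on the log2 scale (SE, limma adjusted p = 0.0115), a call that was lost without 0 h replicate 2. It had 97 and 98 tags (0 h), 60 and 37 (18 h), 48 and 77 (48 h) and 147 and 86 (120 h), so the tag values overlap, and without centring the change was 0.21 (adjusted p = 0.672). Col1a1, a collagen of stromal cells, had 149 and 132 tags at 0 h, 58, 48 and 52 in 3 libraries between, and 165 and 112 at 120 h. Myl9, a myosin light chain of smooth muscle, had 122 and 119 at 0 h, 55 in 1 library at 48 h, and 153 and 70 at 120 h. Whether these peaks came from cells other than germ cells was not tested.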
